A study of Mus musculus with 58 samples.

Results

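The mitochondrial ribosomal protein genes are the nuclear genes for the protein part of the ribosome inside mitochondria. Members were all genes whose symbol is Mrpl or Mrps followed by a digit, without the pseudogene ending -ps, and whose mean normalized count was 10 or more in both brain regions measured. This gave 76 members out of 31246 genes listed, with 47 Mrpl symbols, for the large subunit, and 29 Mrps symbols, for the small subunit. The minimum removed no gene, since all 76 matching symbols passed it.

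The mitochondrial ribosome makes the few proteins that the mitochondrial genome encodes, which are core subunits of the respiratory chain and of ATP synthase. Its RNAs come from mitochondrial DNA, but its proteins are all encoded in the nucleus, made in the cytosol and imported. It has lost parts of the bacterial ribosomal RNA and gained many proteins of its own, so members fall into families shared with bacteria and families found in mitochondria. Neurons depend heavily on the respiratory chain, and inherited defects in several of these proteins cause mitochondrial disease that can involve the brain.

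The study compared *APOE3/4* with *APOE3/3* in a brain region vulnerable to Alzheimer's disease, the entorhinal cortex (EC), and in the more resistant primary visual cortex (PVC). All mice were C57Bl/6 males of 14 to 15 months. In them human *APOE* replaced mouse Apoe under the endogenous murine promoter, so both groups lacked mouse Apoe. The study as a whole drew its mice from 2 colonies, and its methods do not say which gave the sequenced mice. Each region had 10 *APOE3/3* mice, with the E3 allele on both chromosomes, and 19 *APOE3/4* mice, with an E3 and an E4 allele, which makes 58 libraries of poly(A)+ RNA sequenced as 149-base single reads. The 29 animal numbers were the same in both regions. What was analysed here was the authors' mean normalized count, 1 value per gene and region over all 29 libraries of both genotypes. It has no value per mouse, so no SD, standard error or p-value could be given, and the difference between genotypes was not analysed here. Every comparison below is therefore a description of the regional means, and whether a difference exceeds the spread between mice cannot be said.

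Both regions were taken as pieces of tissue, so fewer cells of a type and less RNA per cell cannot be told apart. Depth per library was not analysed here, and the regional means summed to 4.94e+07 in EC and 2.71e+07 in PVC, in tables that were normalized separately. None of the marker genes found in the tables was at 0, and Rbfox3 was not listed. Differences between regions are given as the log2 ratio of EC to PVC minus the median log2 ratio of 0.89 over the 15642 genes with a mean of 10 or more in both. On that scale the 6 oligodendrocyte markers were all lower in EC, with a median of -1.44 and a summed mean of 45350 in EC and 63075 in PVC. The 4 meningeal markers were all higher, with a median of 0.98 and sums of 10261 and 1925. The other lists were mixed in direction. The median was 0.99 for 5 hippocampal markers (range -0.25 to 1.79), 0.28 for 5 astrocyte markers (-0.35 to 0.62) and -0.24 for 5 neuronal markers (-0.55 to 0.14). It was 0.06 for 5 microglial markers (-0.04 to 0.15) and 0.02 for 4 endothelial markers (-0.01 to 0.04). The 4 choroid plexus markers ranged from -2.18 to 1.45, and their summed level was 518 in EC and 517 in PVC. The part of cell composition in the members' values was not tested.

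Among genes with a mean of 10 or more in both regions, the members were transcribed at moderate levels that were close to each other. To compare genes, each mean normalized count was divided by the gene's union exon length in the NCBIM37 annotation (mm9), which gives a level per kilobase. The median level of the 76 members was 529 per kilobase in EC and 297 in PVC. These lay at the 65.0th and 65.8th percentiles of the 14959 genes with a length and a mean of 10 or more in both regions. In EC, 53 members lay within 2-fold and 72 within 4-fold of the members' median level. The interquartile range was 2.09-fold in EC and 2.21-fold in PVC, against 8.47-fold and 9.05-fold for the 14959 genes. It was 4.69-fold and 4.77-fold for genes with a mean of 100 or more, which 75 of the members had. The 78 cytosolic ribosomal protein genes, taken by symbols of Rpl or Rps and a digit, had an EC interquartile range of 3.12-fold, and the 86 respiratory chain genes with a length had one of 3.15-fold. The cytosolic list was not exact, since it holds the binding protein Rps19bp1 and lacks Fau. The respiratory chain list, also taken by symbol, was not exact either, since it holds assembly factors such as Ndufaf2. Some smaller lists of mitochondrial translation were tighter than the members in EC. The interquartile range was 1.78-fold for 17 tRNA synthetases, 1.96-fold for 10 translation factors and 1.88-fold for 15 assembly factors. It was wider, at 2.35-fold, for the 7 structural proteins of this ribosome with other names. The ranges of the other lists were computed only per kilobase of union exon. Whether they stay wider or tighter than the members with another length, or with undivided counts, was not tested. The order of members was nearly the same in both regions, with a Spearman rho of 0.99 across genes, which share their libraries and their annotated lengths.

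**Figure D1:**
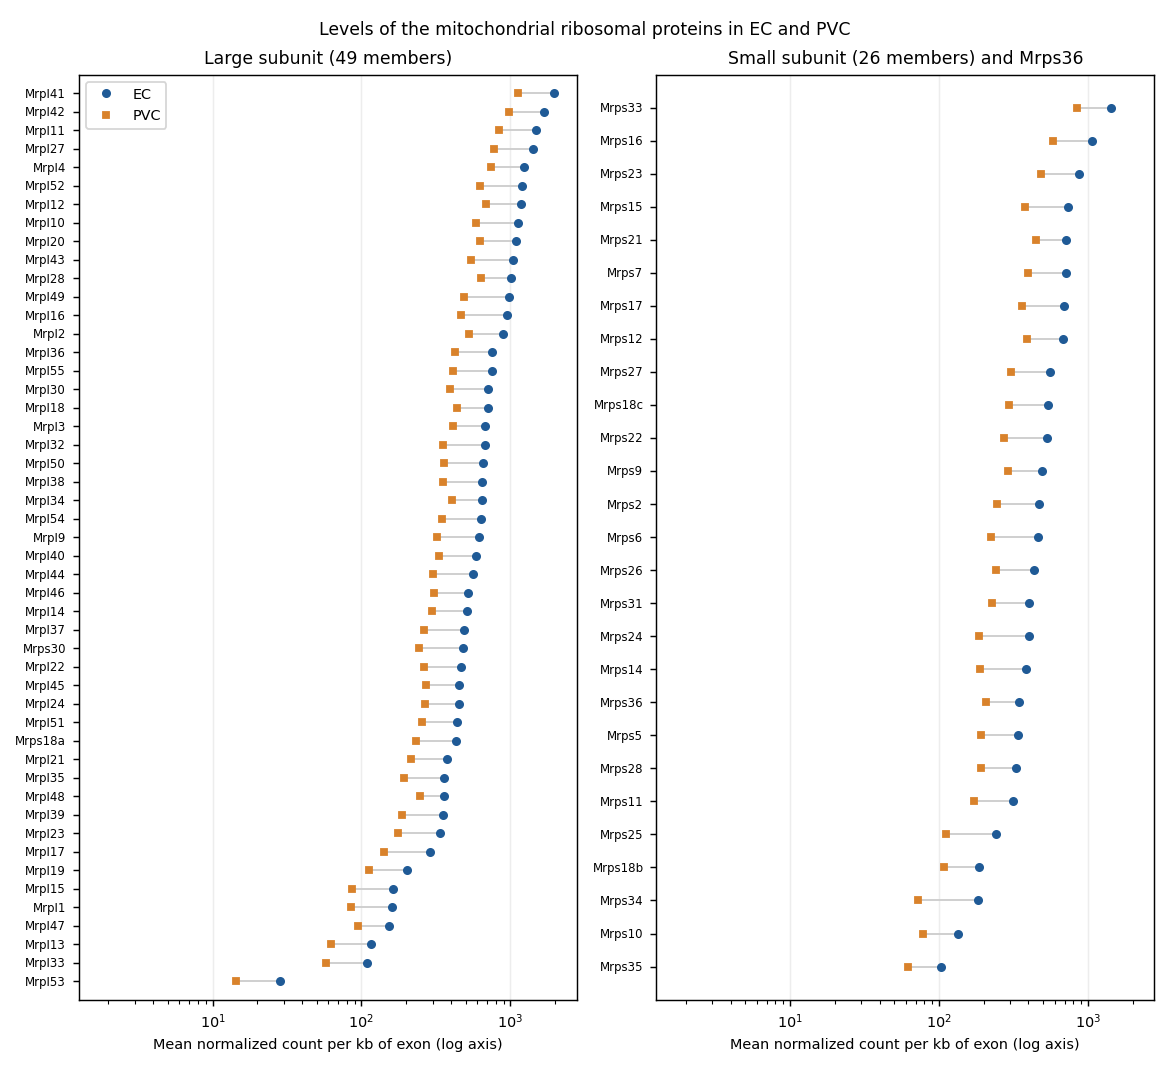
Mean normalized count per kilobase of exon, on a log axis, for each of the 76 members in EC (circles) and PVC (squares), ordered by the EC level within the large subunit (left) and the small subunit with Mrps36 (right). Each point is 1 mean over 29 libraries with no error bar, levels of the 2 regions are not on 1 scale, and most members sit within 4-fold of the EC median of 529 while Mrpl53 lies far below at 28.2.

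Of the 5 highest levels per kilobase, 4 belonged to the large subunit. Mrpl41, a protein found in mitochondria but not in bacteria, stood at 1975 in EC and 1119 in PVC. Its gene, ENSMUSG00000036850.3, lies at chr2:24829637-24830618 on the minus strand, with 776 exon bases in all. Mrpl42, also of a mitochondrial family, followed at 1669 in EC and 982 in PVC. Mrpl11, which forms the base of the stalk where translation factors bind, was at 1476 and 836. Mrps33, a mitochondrial family of the small subunit, was at 1437 and 844, and Mrpl27, which lies near the site of peptide bond formation, was at 1423 and 776. Even the highest of these stood at percentile 91.2 of all genes in EC. The mean normalized counts behind these 5 levels ran from 1112 to 1776 in EC. Longer genes among the members tended to have higher counts, with a Spearman rho of 0.43 between exon length and EC count. Mrpl3 stood at 2416, but Mrps10, with the most exon bases, at 1093.

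The lowest levels per kilobase were found in genes with long annotated exons, with 1 exception. Mrps10, of the head of the small subunit, was at 135 in EC and 78.2 in PVC over 8079 exon bases. Mrpl13 was at 116 and 62.9 over 7936 bases, and Mrpl33 at 108 and 57.7 over 7473 bases. Mrps35, of the small subunit, was at 104 and 62.4 over 5543 bases. For all 4 the mean normalized counts in EC were ordinary for members, from 577 to 1093. The exception was Mrpl53, with only 735 exon bases, at 28.2 per kilobase in EC and 14.4 in PVC. Its mean normalized count of 20.7 in EC and 10.5 in PVC put it just inside the minimum of 10, and no member lay just outside. The next lowest counts were 257 for Mrps28 in EC and 150 for Mrps34 in PVC.

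The order of members depended on the length used. Over the 76 members, exon length and EC level per kilobase had a Spearman rho of -0.63. A negative value is partly built in, since the level is the count divided by that length. With the undivided EC count the rho was 0.43. The median member had 1700.5 exon bases but only 585 coding bases. With the longest protein-coding transcript as length, Mrps10 moved from rank 72 to rank 23, Mrps21 from 21 to 2 and Mrps18a from 51 to 4. Mrpl41 stayed at rank 1 and Mrpl53 at rank 76. The orders by both lengths had a rho of 0.79.

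Members named for the large subunit had a higher median level than those named for the small subunit. The medians were 638 and 467 per kilobase in EC, a difference of 0.45 on the log2 scale, and 350 and 242 in PVC, a difference of 0.53. With subunits assigned by place in the ribosome, where Mrps30 and Mrps18a belong to the large subunit and Mrps36 to neither, the EC medians were 613 for 49 members and 470 for 26. The EC difference was 0.11 per kilobase of coding length and 0.25 without division by length. The 46 members of families shared with bacteria had a median of 576 per kilobase in EC and the 29 of mitochondrial families one of 521.

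Around the stalk of the large subunit, Mrpl12, the protein that contacts the elongation factors, was at 1172 per kilobase in EC and 682 in PVC. Mrpl10, which anchors Mrpl12, was at 1129 and 590. With Mrpl11 at 1476, the 3 stalk genes ranked 3, 8 and 9 of 76 members in EC, and 8, 11 and 17 with the longest protein-coding transcript as length, while Mrpl53, which also sits near the stalk, was the lowest member by both. Mrpl2 and Mrpl3, which surround the peptidyl transferase centre, were at 887 and 677 per kilobase in EC. Mrpl45, at the exit of the tunnel on the side of the inner membrane, was at 455, Mrpl44, a relative of RNase III enzymes, at 564, and Mrpl36, among the smallest proteins of the ribosome, at 756. The levels of these 5 genes ran from 455 to 887.

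In the small subunit, Mrps12, part of the decoding centre, was at 682 per kilobase in EC and 392 in PVC. Mrps16, mutated in a mitochondrial disease, was at 1068 in EC, Mrps7, of the subunit head, at 710, Mrps22, another disease gene, at 536 and Mrps2 at 474. Mrps30 was at 483 per kilobase in EC, and Mrps36, now known as a component of the 2-oxoglutarate dehydrogenase complex, was at 347, rank 59. The 3 paralogs related to bacterial protein S18 hold different places in the ribosome, and their EC levels were 541 for Mrps18c, 434 for Mrps18a and 186 for Mrps18b. In PVC the 3 kept that order at 296, 232 and 108. The order changed with the longest protein-coding transcript as length, where Mrps18a ranked 4, Mrps18c 39 and Mrps18b 66 of 76.

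The other gene lists of mitochondrial translation had lower medians than the members. The 7 structural proteins with other names had a median of 502 per kilobase in EC, with Chchd1 at 1175, Aurkaip1 at 994, Ptcd3 at 887, Dap3 at 502, Ict1 at 455, Mrp63 at 352 and Gadd45gip1 at 322. The 10 translation factors had a median of 252, with Tufm, the elongation factor that brings tRNA to the ribosome, highest at 1248. The 17 mitochondrial tRNA synthetases had a median of 300, with Lars2 far above the rest at 27687 and Aars2 next at 454. Why the value of Lars2 was so high was not tested. The 16 assembly and ribosomal RNA factors had a median of 221, over the 15 with a length. Far above stood the cytosolic ribosomal proteins at 3155 and the respiratory chain at 2418 per kilobase in EC. The 76 members together made up 0.165% of the summed mean normalized counts in EC and 0.168% in PVC, against 0.858% and 0.888% for the 78 cytosolic ribosomal proteins.

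Between EC and PVC the members differed little relative to all genes. Their median difference was -0.03 on the log2 scale, with quartiles of -0.11 and 0.03, and 26 members were above 0 and 50 below. The sign of this median is not firm, since it was 0.05 when regions were centred on the cytosolic ribosomal proteins. Only 2 of 76 members, 2.63%, were past 1.2-fold in either direction, against a background of 31.4% of the 15642 genes. Of these genes 17.5% were past 1.2-fold higher in EC and 13.9% lower, and each direction held 1 member. Among the 12097 genes with a mean of 100 or more the background was 25.4%. Within 1.1-fold lay 60 members, or 78.9%, against 46.7% of all genes and 52.2% of those with a mean of 100 or more.

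**Figure D2:**
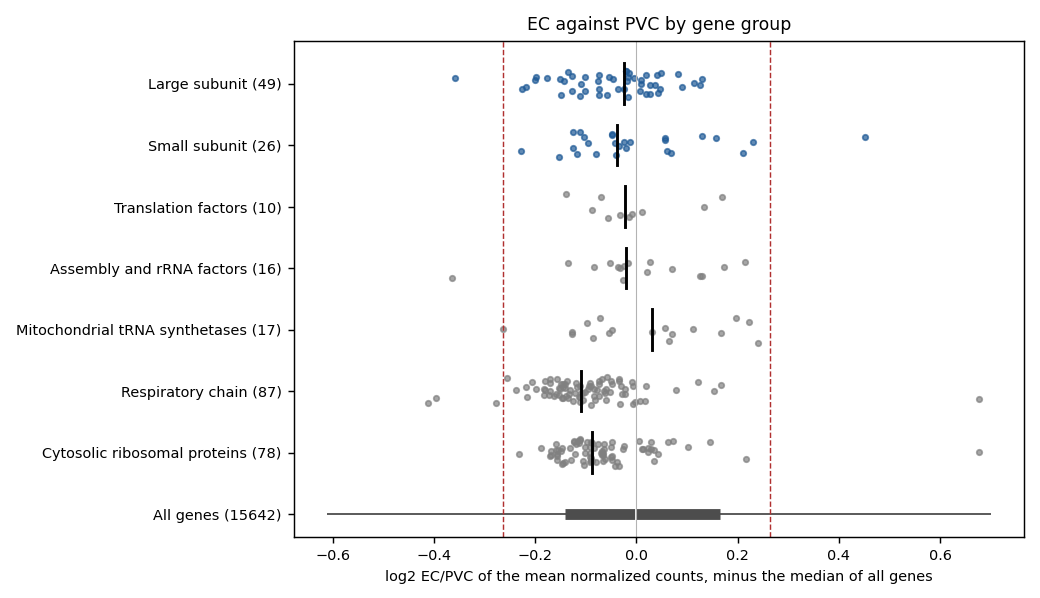
Log2 ratio of EC to PVC for each gene, minus the median of all genes, for the members by place in the ribosome (Mrps36 left out) and for 5 other gene lists, with black bars at the medians and dashed lines at 1.2-fold. The lowest row gives all 15642 genes, with a thick line from the first to the third quartile and a thin line from the 5th to the 95th percentile, which runs well beyond all but a few members.

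Mrps34, a mitochondrial family of the small subunit, had the largest difference. Its mean normalized count was 381 in EC and 150 in PVC, a centred log2 difference of 0.45 or 1.37-fold. Next came Mrps25, also of a mitochondrial family, at 1600 and 734, a difference of 0.23. Both genes stayed within 1.5-fold. Mrps24, related to bacterial S3, differed by 0.21, and Mrps6, which lies at the edge of the platform, by 0.16. Mrps14, of the subunit head, and Mrpl17 both stood at 0.13. The 4 largest differences toward EC were in small subunit genes, and the fifth place was not separable between Mrps14 and Mrpl17. All 4 share exon bases with another gene, and the medians of members named for the small and the large subunit were -0.03 and -0.04.

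In the other direction Mrpl48, of a mitochondrial family in the large subunit, had counts of 2184 in EC and 1507 in PVC, a difference of -0.36 or 0.780-fold. Mrps21, the counterpart of a small bacterial protein, was at 912 and 575, a difference of -0.23. Mrpl34, at 416 and 262, also differed by -0.23, followed by Mrpl28 at -0.22 and Mrpl18, of the central protuberance, at -0.20. The latter 4 lay inside 1.2-fold.

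All members other than Mrps34 and Mrpl48 lay within 1.2-fold, which is 0.26 on this scale. Mrpl12, Mrpl11 and Mrpl10 differed by -0.11, -0.07 and 0.04. Mrps12 stood at -0.10, Mrps16 at -0.03, Mrps7 at -0.05, Mrps2 at 0.06 and Mrps22 at 0.07. Mrpl3, Mrpl45 and Mrpl2 were lower in EC by relative measure, at -0.18, -0.15 and -0.14. Mrpl44 was at 0.01, Mrpl36 at -0.05, Mrps30 at 0.09 and Mrps36 at -0.15. The paralogs Mrps18a, Mrps18c and Mrps18b were at 0.01, -0.02 and -0.11. The values of these genes ran from -0.18 to 0.09, beyond the quartiles of the members on both sides.

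Of the related lists, the cytosolic ribosomal proteins had a median difference of -0.09, with 1 of 78 past 1.2-fold, Rps4y2 at 0.68. The respiratory chain list had one of -0.11, with 4 of 87 past it. These were Cox6b2 at 0.68, the assembly factor Ndufaf2 at -0.41, Cox7a1 at -0.40 and Ndufa5 at -0.28. Cox6b2 and Cox7a1 had low mean normalized counts, 82.2 and 30.6 in EC and 27.7 and 21.7 in PVC. The median differences were 0.03 for the synthetases, with 0 of 17, and -0.02 for the factors, with 0 of 10. The structural proteins with other names had a median of 0.00, with 0 of 7 past the limit, and the assembly factors one of -0.02, with 1 of 16, the ribosomal RNA methyltransferase Mrm1 at -0.36. Of 24 assembly gene symbols sought, 16 were listed, and the 24 include older and newer symbols of the same gene, such as Mterfd1 and Mterf3.

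The member with the lowest level and the 2 members past 1.2-fold shared exon bases with other genes. Other members at the extremes shared 0, among them Mrpl41, the highest, and Mrps21 and Mrpl34, both at -0.23 between regions. In the annotation, 25 of 76 members (32.9%) share exon bases on either strand with another listed gene, against 23.5% of genes with a mean of 10 or more. At least 30% of the exon bases were shared in 7 members (9.21%), against 2.91% of those genes. These 7 were Mrpl53 at 87.1%, Mrps34 at 77.8%, Mrps25 at 53.7%, Mrps6 at 43.8%, Mrpl48 at 41.9%, Mrpl19 at 36% and Mrps18b at 30.5%. The set holds the lowest level of all members and both members past 1.2-fold. These 2 of 7, or 28.6%, are near the share of all genes, 31.4%, and of all genes with 30% or more shared, 27.4%. The set was described after its values were seen.

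Mrpl53 (ENSMUSG00000030037.8, chr6:83059089-83059933, plus strand) lies largely within exons of Ccdc142 on the same strand, whose mean normalized count was 637 in EC. Of the 735 exon bases of Mrpl53, 640 are shared, so its unshared bases are fewer than the 149 bases of a read. Its value of 218 per kilobase of unshared exon bases in EC, against 28.2 for all exons, is therefore not a reliable level. Mrps34 (ENSMUSG00000038880.7, chr17:25032061-25034447, plus strand) overlaps Mapk8ip3 on the opposite strand, with a count of 31233 in EC, and Nme3 on its own strand, at 1.72. Its level per unshared kilobase was 831 in EC against 185 for all exons. The counting mode and the use of strand, which decide how reads in shared bases are assigned, are not stated in the sources used here.

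Mrpl48 (ENSMUSG00000030706.9, chr7:107694265-107756811, minus strand) overlaps Rab6, at 22775 in EC, whose own difference between regions was -0.21. Mrps6 (ENSMUSG00000039680.8, chr16:92058515-92112472, plus strand) overlaps Slc5a3, a myo-inositol transporter on the same strand, whose difference was 0.40. The partner of Mrps25, Nr2c2, differed by -0.01, that of Mrpl19, AW146020, by 0.26 and that of Mrps18b, Gm16279, by -0.04, while Mapk8ip3 differed by -0.02. Partners thus moved the same way as the member in some pairs and not in others.

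Among the 55 members with less than 5% shared bases, 0 were past 1.2-fold, and their differences ran from -0.23 to 0.13. The Spearman rho of the shared percentage with the size of the difference was 0.14 over 76 members, most of them at 0% shared. Over all genes, 27.4% of the 435 with 30% or more shared were past 1.2-fold, against 32.4% of the 11438 with none. These sets of genes also differed in level, with EC medians of 111 and 329 per kilobase. Such shares over whole sets cannot say what sharing did in a particular member. The part of shared exons in the values of Mrps34, Mrpl48 and Mrpl53 was not tested.

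**Figure D3:**
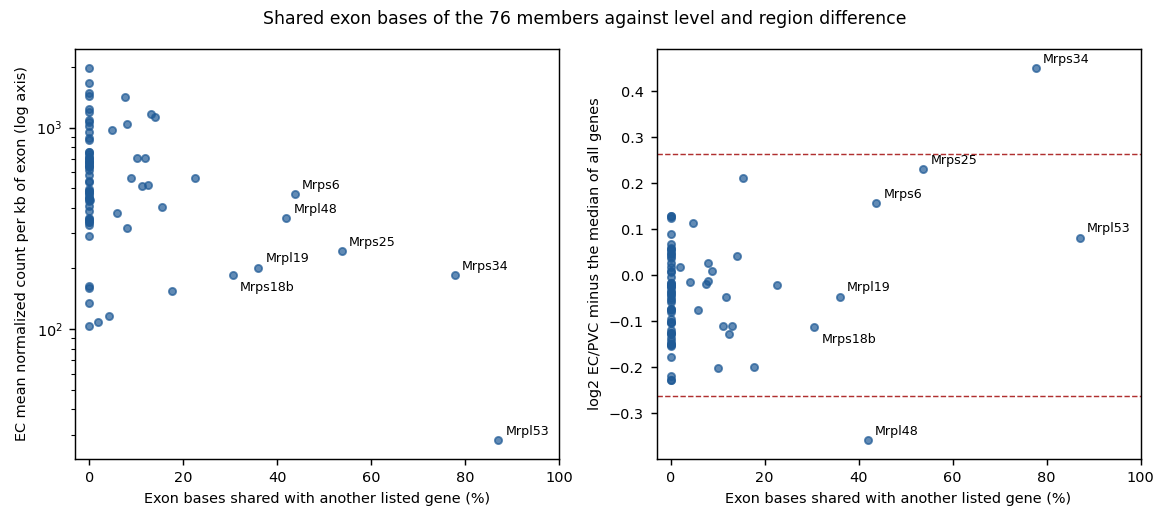
Share of each member's exon bases that lie in another listed gene, against its EC mean normalized count per kilobase of exon on a log axis (left) and against its log2 ratio of EC to PVC minus the median of all genes (right), with dashed lines at 1.2-fold. Points are the 76 members, the 7 with 30% or more are named, and Mrpl53, Mrps34 and Mrpl48 lie at the edges of the plots.

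The members were spread over 17 chromosomes, with 10 on chromosome 11 and 8 on chromosome 17. Mrpl46 and Mrps11 are neighbours on chromosome 7 whose 5′ ends overlap head to head, and they differed by -0.13 and -0.01 between regions. A protein-coding gene that starts within 1000 bases on the opposite strand and runs away from the member was found for 16 members (21.1%), against 9.65% of 14086 protein-coding genes. Mrps12 starts 171 bases from Sars2, the mitochondrial seryl-tRNA synthetase, and the pair differed by -0.10 and -0.13. Mrps34 starts 29 bases from Eme2, a subunit of a DNA endonuclease, and both were higher in EC, by 0.45 and 0.32. Mrpl49 and its neighbour Fau, 135 bases away, stood at 0.11 and -0.16, so such pairs did not always move together.

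Promoters were examined because the members, as a set, differed little between regions. RefSeq sequences of build GRCm38.p6, from 250 bases before the start to 50 after it, matched 67 members, and Mrpl4, Mrpl13, Mrpl15, Mrpl19, Mrpl38, Mrpl54, Mrps28, Mrps34 and Mrps35 had no entry. Motifs were searched as exact letters on both strands. The ETS motif CCGGAAG, bound by factors such as GABPA that regulate many mitochondrial genes, was in 35.8% of the members' promoters, against 17.3% for 10515 genes with a mean of 10 or more and 9.93% of all 27025 promoters. The NRF1 motif GCATGCGC, of a regulator of nuclear genes for mitochondria, was in 11.9%, against 5.55% and 3.05%. The YY1 motif AAGATGGCG was also in 11.9%, against 3.08% and 1.64%. At least 1 of these 3 motifs was in 50.7% of the members' promoters and 23.7% of those of genes with a mean of 10 or more.

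Other motifs were as frequent or less frequent in the members. The SP1 motif GGGCGG was in 49.3% of their promoters against 66.9% for genes with a mean of 10 or more, CCAAT in 40.3% against 42.5%, and the TATA box TATAAA in 7.46% against 9.13%. The ETS motif was also found in 36.8% of 57 cytosolic ribosomal protein promoters and in 24.6% of 69 respiratory chain promoters, so it was not particular to the members. The NRF1 motif was in 5.26% and 15.9% of these, and the YY1 motif in 7.02% and 10.1%. Members with the ETS motif had a median level of 550 per kilobase in EC and a median difference of -0.04, and those without it 521 and -0.02.

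**Figure D4:**
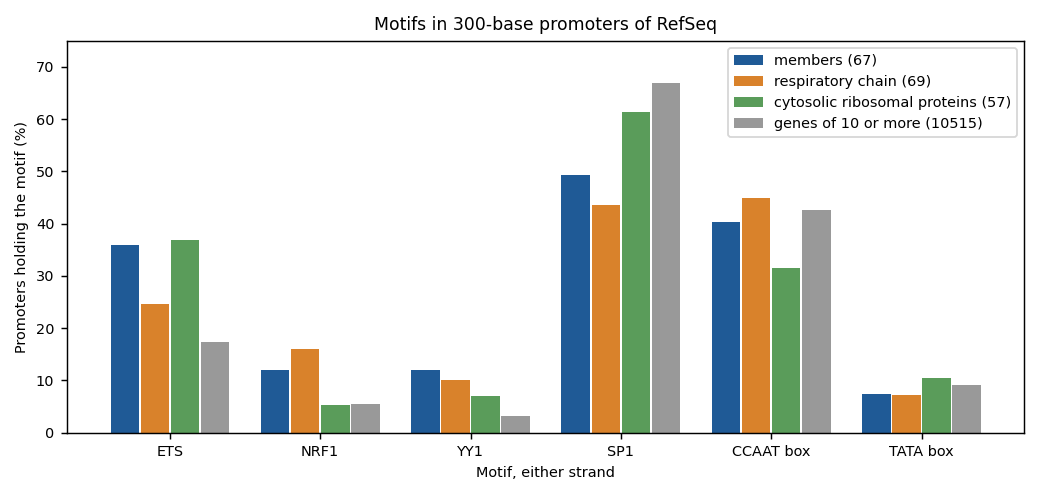
Percentage of RefSeq promoters of 300 bases that hold each of 6 motifs on either strand, in the members, the respiratory chain, the cytosolic ribosomal proteins and all genes with a mean of 10 or more, with the number of promoters in the key. The bars of the members are above those of all genes for ETS, NRF1 and YY1 and below them for SP1.

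Both an ETS and an NRF1 motif were in 4 promoters of members and both an ETS and a YY1 motif in 2 others. The 4 of these 6 whose ETS motif lies wholly before the start are printed to show where the motifs stand. Each run is the 250 bases before the start in GRCm38.p6, read 5′ to 3′ on the strand of the gene, and capitals mark ETS motifs (CCGGAAG or its reverse complement CTTCCGG) and NRF1 motifs (here as the reverse complement GCGCATGC). The positions are chr7:105811088-105811337 (minus strand) for Mrpl17, chr11:58171414-58171663 (plus) for Mrpl22, chr17:46110754-46111003 (plus) for Mrps18a and chr13:99344536-99344785 (plus) for Mrps27.
Mrpl17: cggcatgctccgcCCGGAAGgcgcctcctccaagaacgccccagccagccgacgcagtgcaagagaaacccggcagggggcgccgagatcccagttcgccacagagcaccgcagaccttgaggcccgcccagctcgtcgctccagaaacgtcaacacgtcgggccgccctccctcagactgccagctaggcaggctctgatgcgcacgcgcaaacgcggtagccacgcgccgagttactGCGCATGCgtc
Mrpl22: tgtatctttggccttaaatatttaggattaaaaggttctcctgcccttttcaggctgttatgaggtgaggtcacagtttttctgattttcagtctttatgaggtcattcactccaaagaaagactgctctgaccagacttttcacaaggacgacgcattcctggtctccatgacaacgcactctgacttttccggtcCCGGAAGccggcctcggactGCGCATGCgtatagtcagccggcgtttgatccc
Mrps18a: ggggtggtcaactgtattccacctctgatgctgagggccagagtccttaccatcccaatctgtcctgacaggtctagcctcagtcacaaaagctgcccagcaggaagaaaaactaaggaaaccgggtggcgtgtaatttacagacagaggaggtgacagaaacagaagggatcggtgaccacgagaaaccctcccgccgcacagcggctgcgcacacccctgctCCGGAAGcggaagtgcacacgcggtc
Mrps27: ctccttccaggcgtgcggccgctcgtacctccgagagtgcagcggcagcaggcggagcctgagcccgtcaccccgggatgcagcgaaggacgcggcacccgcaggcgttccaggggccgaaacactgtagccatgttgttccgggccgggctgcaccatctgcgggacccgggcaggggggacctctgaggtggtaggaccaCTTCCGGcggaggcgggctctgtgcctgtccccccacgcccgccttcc

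In Mrpl22, Mrps18a and Mrps27 the ETS motif begins 53, 26 and 48 bases before the start, and in Mrpl17 it begins 237 bases before it. The NRF1 motif begins 33 bases before the start in Mrpl22 and 11 in Mrpl17. The YY1 motifs of Mrps18a and Mrps27 lie past the printed runs, with 11 and 14 bases between. Mrpl22, Mrps18a and Mrps27 differed by -0.06, 0.01 and -0.02 between regions and Mrpl17 by 0.13.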

How the data were processed

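Per the labels and the study's methods, the authors aligned reads to mm9 with TopHat2 2.0.6 and Bowtie2 2.0.2.0, counted them per gene with HTSeq against a modified NCBIM37.61 annotation, and ran DESeq2 1.10.1. The deposited value used here is a signal, a gene's counts divided by size factors and averaged by the authors over the 29 libraries of a region, both genotypes pooled. The other 5 columns of each table hold the authors' own comparison of the genotypes (fold change, its standard error, statistic, p-value and adjusted p-value) and were not used, so no count model or test was run. The region of a table was taken from its name. Per the labels, 7 libraries were sequenced several times.

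Levels per kilobase used union exon lengths of the GENCODE annotation on NCBIM37, which is not the release the authors used and gave a length for 95.6% of the 15642 genes with a mean of 10 or more. Regions were centred on the median log2 ratio of these genes, and "past" means beyond 1.2-fold, a description with no test. Values were computed in pandas 2.3.3 on numpy 2.4.6 (Python 3.11.15), rank correlations in scipy 1.17.1 and plots in matplotlib 3.10.9. The centring and counting steps were tested on simulated data.

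The members and lists were chosen with earlier results of these data known. Named members are the 5 highest and 5 lowest EC levels per kilobase, the 5 largest differences each way, members nearest the minimum, the Mrps18 paralogs and members with a role stated as background. Members named for shared exons, neighbours or printed promoters, the places and families of the subunits, and the motifs were chosen after the values were seen. Alternatives changed the minimum, the length, the centring and the fold limit.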

Additional observations from a re-analysis of the deposited data

How the results depend on the processing

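Of 39 alternative values, 26 stayed within 0.1 on the log2 scale, or within 1.5 times for a count, of the value reported, and 13 moved. The difference between large and small subunit medians in EC, 0.45, was 0.35 per kilobase of the longest annotated transcript and 0.25 without division by length. In PVC, 0.53 became 0.11 without division by length. Chosen after the data were seen, the longest protein-coding transcript gave 0.26 in EC and 0.34 in PVC, and coding length 0.11 and 0.18. The interquartile range of levels, 1.06 in EC and 1.14 in PVC on the log2 scale, was 0.93 and 1.01 over members with less than 5% shared exon bases, and 1.04 in PVC per unshared kilobase, both chosen after the data were seen. The number of members past the fold limit, 2 at 1.2-fold, was 16 at 1.1-fold, where 53.3% of all genes were past it, 0 at 1.5-fold, with 12.2% of all genes, and 0 among members with less than 5% shared bases. The members' median difference of -0.03 ran from -0.04 to 0.05 and changed sign only with centring on the cytosolic ribosomal proteins. The causes of these shifts were not tested, beyond the change of length, limit or members itself.

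No paired analysis was possible because the values used are means over all libraries of a region and carry no animal number. For the same reason no setting left out a library, and the spread between mice, the depth per library and the colony were not measured here.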
